A study of Mus musculus with 6 samples.

Results

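The SLC25 family of mitochondrial solute carriers was followed in the ovaries of mice given FNZ. Members were the genes whose symbol is Slc25a followed by a number and that had at least 10 counts summed over all libraries. The deposited table lists 47 such symbols among 56980 genes, and 45 reached that sum. Slc25a2 and Slc25a21 were the members nearest to the limit, with 15 and 48 counts in all, and Slc25a41 and Slc25a54 lay under it with 4 and 2 counts. RNA was measured in 3 libraries from ICR mice injected with FNZ (replicates 2, 3 and 5) and in 3 control libraries from ICR mice injected with the solvent (replicates 2, 3 and 4). FNZ, a compound that the labels give by these letters only, was given daily into the peritoneum at 30 mg/kg for 7 days, in equal parts (50% each) of polyethylene glycol and physiological saline. The labels count 3 dissected ovaries per group and do not say whether they came from separate mice, nor their age, so p-values measure the spread between these samples. The title of the study names blockade of T-type calcium channels, mitochondrial function and follicle development, and the only comparison is FNZ against control.

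SLC25 proteins carry metabolites across the inner mitochondrial membrane, which is otherwise closed to most of them. They exchange ADP for ATP, bring in phosphate, move citrate, malate, amino acids, acylcarnitines and cofactors, and so connect the matrix with the cytosol. In the ovary, mitochondria supply ATP to the oocyte, which relies on pyruvate handed over by granulosa cells, and hold the first steps of steroid synthesis in theca and luteal cells.

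Total expected counts ran from 19333493 to 22587113 in FNZ libraries and from 22027408 to 23406628 in control libraries. Granulosa markers summed to between 5652 and 6990 TPM (transcript abundance scaled for gene length and depth by the authors) in FNZ libraries and between 5832 and 6118 TPM in control libraries, and 10 of 10 had counts. Of these, Fst and Hsd17b1 were higher in every FNZ library, Amhr2 was lower in every FNZ library, and the rest overlapped. In TPM, 6.14% of all tested genes were higher in every FNZ library and 25.4% lower, shares that apply to the markers below too. Oocyte markers (10 of 10 with counts) and theca and luteal markers (9 of 9) were also present. Other tissues varied within both groups. Adipocyte markers (8 of 8 with counts) summed to between 95.3 and 1495 TPM in FNZ libraries and between 102 and 1485 TPM in control libraries. Red blood cell markers (6 of 6 with counts) ranged from 645 to 3788 TPM in FNZ libraries and from 1989 to 3735 TPM in control libraries. Macrophage markers (8 of 8 with counts) summed to between 213 and 351 TPM in FNZ libraries and between 291 and 496 TPM in control libraries. Of them, 3 (Csf1r, Adgre1 and Cd163) were lower in every FNZ library (25.4% of all tested genes), and the rest overlapped. Among the theca and luteal markers, Star was lower in every FNZ library (9.33 to 44.98 TPM, against 72.1 to 402 TPM in control libraries). Insl3 and Hsd3b1 were higher in every FNZ library, and the rest of the theca and luteal markers overlapped. Oviduct markers (6 of 6 with counts) summed to at most 19.4 TPM in FNZ libraries, and to 398 TPM in control replicate 4 and at most 8.33 TPM in the other control libraries. The part of these cell types in the carriers' values was not tested. edgeR called 0 carriers both with all libraries and without control replicate 4, so leaving that library out cannot show this part. In bulk tissue, fewer cells of a type and less RNA per cell cannot be told apart. Over all 17735 genes tested, the log2 fold change fell with gene length (Spearman's rho = -0.42, across genes), a trend that FNZ replicate 3 did not share (its deviations from the mean of all libraries had rho = 0.08 with length, against -0.46 and -0.30 in FNZ replicates 2 and 5).

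Carrier transcripts spanned a wide range of levels in the ovary. On the TPM scale, 4 members averaged above 100 TPM over all libraries, 23 lay between 10 and 100 TPM, 16 between 1 and 10 TPM and 2 below 1 TPM, with a median of 19.3 TPM. Slc25a3, which brings phosphate into the matrix for ATP synthesis, was the most abundant at a mean of 576.5 TPM. It was followed by Slc25a5 (413 TPM) and Slc25a4 (229 TPM), which encode ADP/ATP carriers. These 3 genes held between 53.8% and 55.7% of the summed carrier TPM in FNZ libraries and between 53.6% and 57.3% in control libraries. Next in order came Slc25a39, a glutathione carrier, at 101 TPM and Slc25a1, the citrate carrier, at 98.6 TPM. Their ranges over libraries overlapped (70.0 to 152 TPM for Slc25a1 and 81.9 to 112 TPM for Slc25a39). At the other end, Slc25a21, a carrier of oxodicarboxylates, averaged 0.337 TPM and Slc25a2, an ornithine carrier, 0.213 TPM.

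No carrier passed the test of FNZ against control. edgeR's quasi-likelihood test, fitted across all genes with Benjamini-Hochberg adjustment, called 0 of 43 tested members at an adjusted p under 0.05 (0% of all 17735 genes tested), and members' adjusted p ran from 0.131 to 0.908. At an unadjusted p under 0.05 it had 5 members higher and 4 lower, and DESeq2 called 1 higher and 1 lower. Over all genes, edgeR's unadjusted p was under 0.05 toward higher in 12% and toward lower in 11.2%, and DESeq2 called 4.27% higher and 5.29% lower (9.55% in all) of those given an adjusted p. With the correction for gene length edgeR called 0 members, against 0.00564% of genes higher and 0.00564% lower (0.0113% in all). Fitted log2 fold changes were positive in 21 members and negative in 22, with a median of -0.03 against 0.01 over all genes tested. All FNZ libraries lay above all control libraries in 10 members and below them in 6, where the share of all tested genes was 15.8% above and 13.8% below (29.6% in all). In TPM the same split was 2 above and 13 below (6.14% and 25.4% of all tested genes), so the direction of this count depends on the unit. The median over all tested genes was itself -0.18 on the log2(TPM + 1) scale, and 11 members were positive and 32 negative on it. Of those whose sign differed, Slc25a10, Slc25a14, Slc25a26 and Slc25a47 were at -0.21, -0.35, -0.0056 and -0.25, and the others are given with their group. Slc25a2 and Slc25a21 were too low to be tested. In the authors' deposited table, 3 members had an adjusted p under 0.05, namely Slc25a4 (0.0437, log2 fold change 0.40), Slc25a32 (0.0220, -0.54) and Slc25a24 (0.0495, -0.42), against 2.88% of genes higher and 3.57% lower among those with at least 10 counts.

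**Figure D1:**
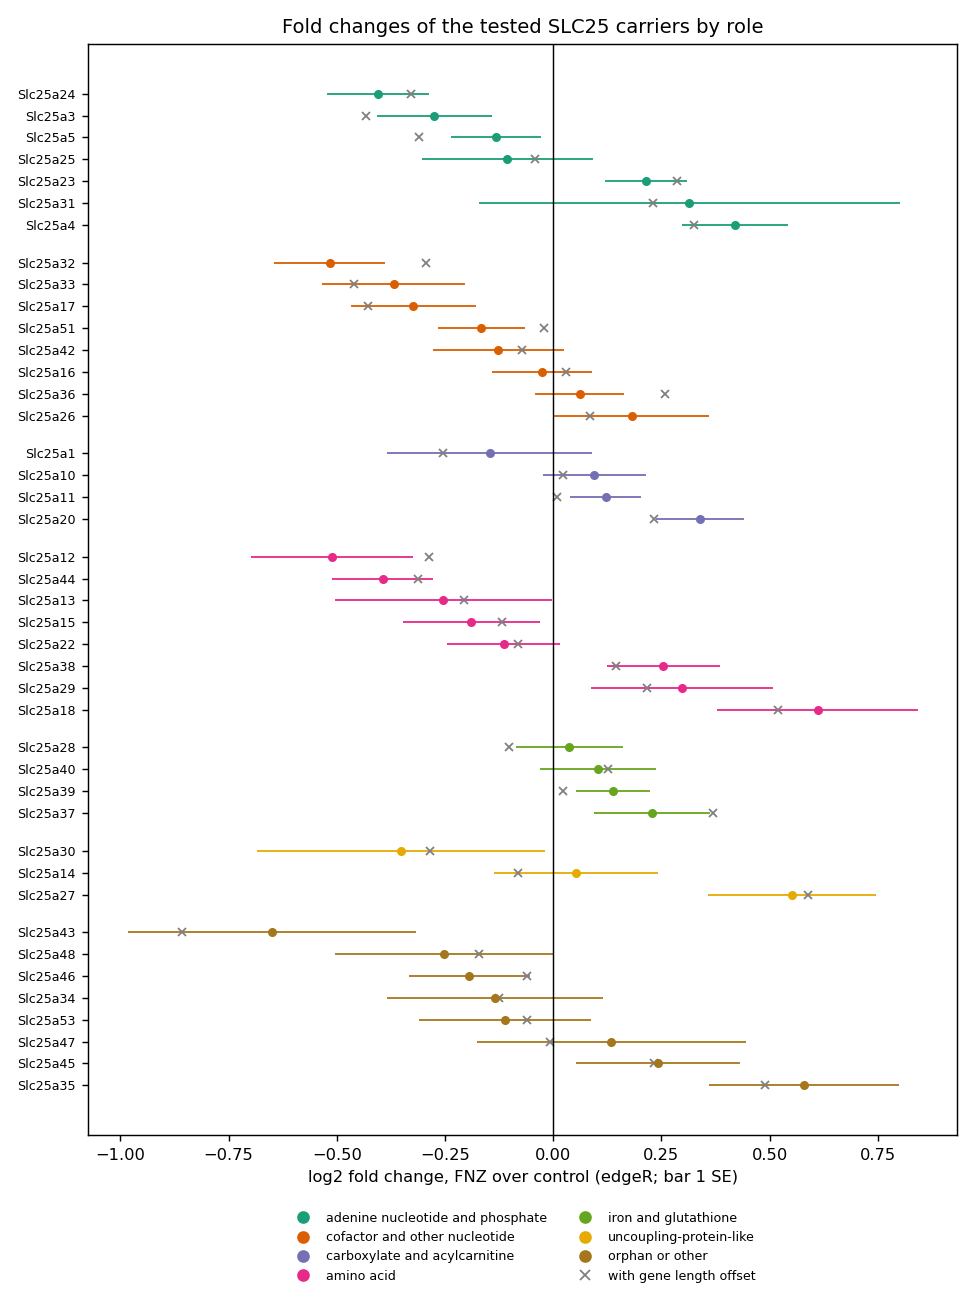
Log2 fold change of FNZ over control (x axis, edgeR, bars 1 SE) for 42 of the 43 tested carriers, grouped by the solute they carry, with grey crosses for the fit that takes out the gene length trend. Points lie on both sides of 0 in 6 of the 7 groups, from -0.65 (Slc25a43) to 0.61 (Slc25a18), and all 4 iron and glutathione carriers have positive values in counts without the length correction.

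The adenine nucleotide and phosphate carriers include the most abundant transcripts of the family. They exchange ATP made in the matrix for ADP from the cytosol, or adjust the size of the adenine nucleotide pool. Slc25a4, the ADP/ATP carrier typical of heart and muscle, measured 324, 275 and 307 CPM (counts scaled to library size by the TMM method) in FNZ replicates 2, 3 and 5, against 247, 233 and 198 CPM in control replicates 2, 3 and 4. Every FNZ library was above every control library. Its means were 302 ± 24.9 CPM in FNZ and 226 ± 25.04 CPM in control ovaries (SD, n = 3 each), a log2 fold change of 0.42 ± 0.12 (SE) with an edgeR adjusted p of 0.136. On the log2(TPM + 1) scale the log2 fold change was 0.08, and in TPM the groups overlapped, at 218, 255 and 232 TPM in FNZ libraries and 241, 224 and 203.5 TPM in control libraries. The value in counts was 0.33 with the correction for gene length, and DESeq2 gave it an adjusted p of 0.0446.

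Slc25a5, the ADP/ATP carrier of most proliferating cells, had a value of the other sign. It measured 283, 314 and 280 CPM in the same FNZ libraries and 337, 326 and 299 CPM in the control libraries, so that FNZ replicate 3 lay inside the control range. In TPM every FNZ library was lower, at 311, 432 and 338 TPM in FNZ libraries and 486, 469.6 and 438 TPM in control libraries, with a log2 fold change of -0.38 on the log2(TPM + 1) scale. In counts the log2 fold change was -0.13 ± 0.10 (adjusted p = 0.465 by edgeR) and -0.31 when gene length was corrected for. Of the 25-base words in its transcripts, 53.6% also occur in transcripts of other genes, mostly processed pseudogenes (GENCODE M21). The 8 copies that hold at least 5% of those words took 0.0677% of the combined counts, so few counts were given to the copies, although reads of the copies given to Slc25a5 would not be seen in this way.

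The promoters of these carriers are shown because the ADP/ATP carriers and the phosphate carrier hold 53.6% or more of the family's TPM in each library and had fold changes of both signs. Each runs 5′ to 3′ from 250 bases before to 50 bases after the annotated start (RefSeq, GRCm38.p6, a build older than the GRCm39 of the counts), and capitals mark matches to the motifs below. Slc25a3 lies at chr10:91123918-91124217 (minus strand), Slc25a4 at chr8:46211013-46211312 (minus strand) and Slc25a5 at chrX:36795347-36795646 (plus strand).
Slc25a3: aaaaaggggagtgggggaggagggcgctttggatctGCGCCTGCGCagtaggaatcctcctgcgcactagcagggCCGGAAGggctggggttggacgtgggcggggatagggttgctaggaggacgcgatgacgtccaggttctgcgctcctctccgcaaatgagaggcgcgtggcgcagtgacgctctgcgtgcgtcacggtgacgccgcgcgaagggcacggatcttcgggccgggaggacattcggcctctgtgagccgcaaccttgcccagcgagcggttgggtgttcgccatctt
Slc25a4: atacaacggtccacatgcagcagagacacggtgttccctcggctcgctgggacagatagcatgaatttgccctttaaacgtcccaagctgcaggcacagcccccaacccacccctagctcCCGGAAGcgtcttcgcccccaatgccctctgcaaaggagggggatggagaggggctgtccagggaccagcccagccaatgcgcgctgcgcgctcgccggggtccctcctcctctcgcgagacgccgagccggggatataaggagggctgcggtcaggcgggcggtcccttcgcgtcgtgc
Slc25a5: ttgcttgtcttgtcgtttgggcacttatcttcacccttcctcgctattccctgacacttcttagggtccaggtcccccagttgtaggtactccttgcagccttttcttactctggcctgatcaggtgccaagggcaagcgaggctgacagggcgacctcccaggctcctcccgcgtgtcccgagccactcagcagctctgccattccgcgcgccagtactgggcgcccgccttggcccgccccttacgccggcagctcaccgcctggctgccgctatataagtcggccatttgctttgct
Searched on both strands were motifs of factors known for nuclear genes of mitochondria or for cyclic AMP signalling: NRF1, ETS factors (CCGGAAG), estrogen-related receptors (TCAAGGTCA), the cyclic AMP response element (TGACGTCA) and YY1. None of these overlaps another in the promoters printed. Slc25a3 holds an NRF1 match from base 37 (read on the opposite strand) and an ETS match from base 76, Slc25a4 an ETS match from base 121, and Slc25a5 none of the 5 motifs. Promoter sequences were at hand for 35 of the 45 members (45 promoters). NRF1 matches lay in 4.44% of them and 4.60% of all 32851 promoters, ETS matches in 13.3% and 8.86%, cyclic AMP response elements in 4.44% and 1.79%, and the other motifs in 0% and under 1%. A match is a description of letters and says nothing on binding.

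Slc25a31, the ADP/ATP carrier of the germ line, was low and varied within both groups. It measured 3.08, 1.5 and 2.93 TPM in FNZ libraries (replicates 2, 3, 5) and 1.97, 3.95 and 1.41 TPM in control libraries (replicates 2, 3, 4). The summed level of 10 oocyte markers was 509, 385 and 709 TPM in the FNZ libraries and 497, 703 and 433 TPM in the control libraries. FNZ replicate 3 and control replicate 4 were the lowest libraries on both measures, and control replicate 3 was high on both. The log2 fold change was 0.31 ± 0.49 (edgeR adjusted p = 0.724), or 0.06 on the log2(TPM + 1) scale, and the part of oocyte content in it was not tested.

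Slc25a3, the phosphate carrier, measured 471, 583 and 436 CPM in FNZ libraries against 627, 568 and 609 CPM in control libraries. FNZ replicates 2 and 5 lay below every control library and FNZ replicate 3 inside their range. In TPM all FNZ libraries were lower, at 442.5, 614 and 435 TPM in FNZ libraries and 682, 618 and 668 TPM in control libraries (-0.42 on the log2(TPM + 1) scale). The log2 fold change in counts was -0.28 ± 0.13 (edgeR adjusted p = 0.258). With the correction for gene length (1341 bases) its value was -0.43 (edgeR adjusted p = 0.242). Without FNZ replicate 3 edgeR called it lower, at -0.41 (adjusted p = 0.0312), and also with both changes, at -0.62 (adjusted p = 0.0293).

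**Figure D2:**
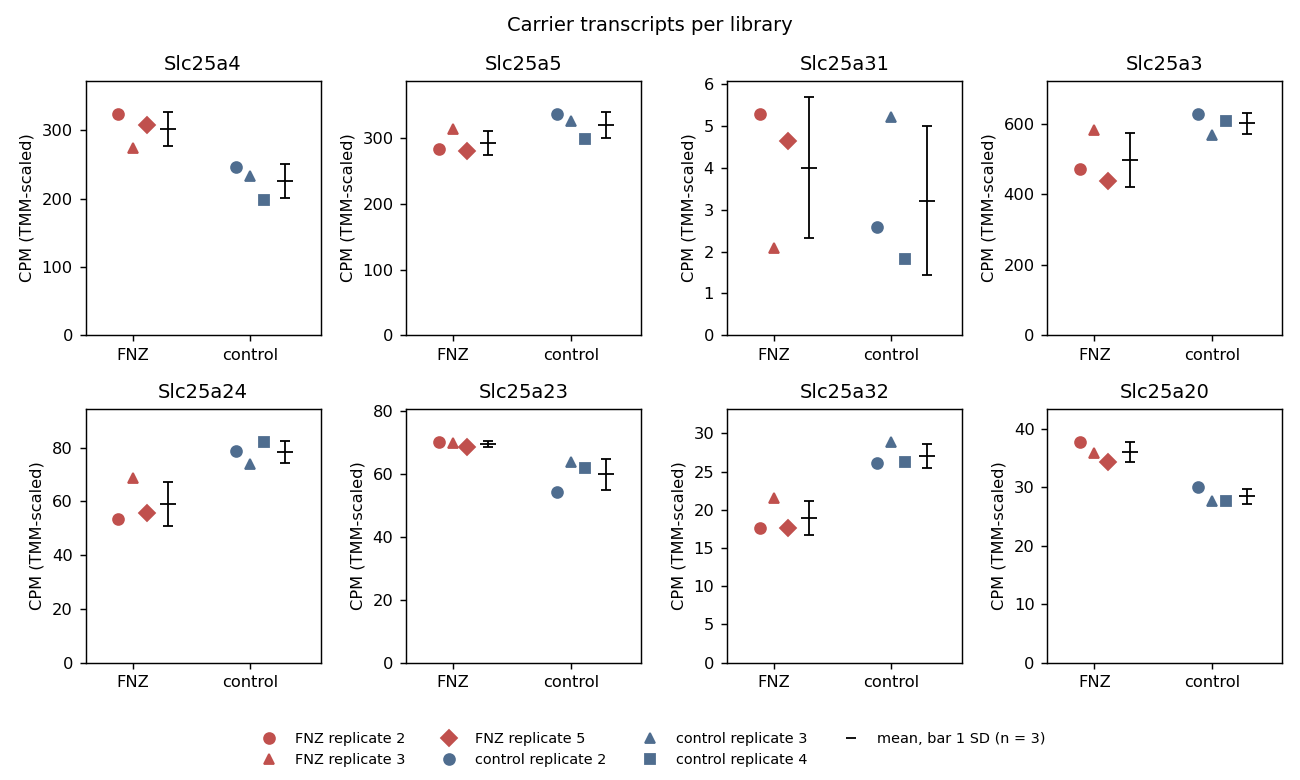
CPM per library (y axis, from 0) of 8 carriers in FNZ and control ovaries, with a symbol per replicate and the mean with 1 SD beside them. Slc25a4, Slc25a23 and Slc25a20 are higher in every FNZ library, Slc25a24 and Slc25a32 are lower in every FNZ library, and Slc25a5, Slc25a31 and Slc25a3 overlap.

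The ATP-Mg/phosphate carriers, which calcium in the space outside the inner membrane activates, had values of both signs. Slc25a24 measured 53.3, 68.6 and 55.6 CPM in FNZ libraries against 78.7, 74.1 and 82.2 CPM in control libraries. All FNZ libraries were lower. The log2 fold change was -0.40 ± 0.12 (edgeR adjusted p = 0.136), or -0.53 without FNZ replicate 3, where edgeR called it (adjusted p = 0.0136). It was -0.33 with the correction for gene length and -0.65 on the log2(TPM + 1) scale. Slc25a23, a close relative with nearly the same gene length (3362 bases against 3431), measured 70.2, 69.6 and 68.5 CPM in FNZ libraries against 54.2, 63.6 and 61.7 CPM in control libraries. Every FNZ library was above every control library. The log2 fold change was 0.21 ± 0.09 (edgeR adjusted p = 0.223), or 0.29 with the correction for gene length. In TPM the groups of Slc25a23 overlapped, at 28.2, 31.8 and 27.9 TPM in FNZ libraries and 25.6, 29.4 and 30.6 TPM in control libraries, and the value on the log2(TPM + 1) scale was 0.04. Exons of Slc25a23 overlap Gm17168, those of Slc25a11 overlap Rnf167 and those of Slc25a33 overlap Gm13068 on the opposite strand, so the counts of these carriers are uncertain. Slc25a25, the third of these carriers, had a log2 fold change of -0.11 ± 0.20 with FNZ replicate 3 as its highest library.

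Ratios of carriers that do like work need no library scaling, so 8 pairs were compared within each library (pairs chosen after the values were seen). The ratio of Slc25a4 to Slc25a5 counts was 1.14, 0.876 and 1.10 in FNZ replicates 2, 3 and 5, against 0.733, 0.713 and 0.663 in control replicates 2, 3 and 4. It was higher in 3 of 3 FNZ libraries, FNZ replicate 3 included, at 1.04 ± 0.143 in FNZ and 0.703 ± 0.0357 in control ovaries (SD, n = 3 each). The mean log2 difference was 0.56 (exact permutation test, two-sided, p = 0.1, which is the lowest value 3 against 3 libraries can reach, and 0.2 adjusted over 8 pairs), and 0.65 with the correction for gene length. Slc25a4 has 1925 bases and Slc25a5 1240 bases, and the difference was 0.46 in TPM.

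The ratio of Slc25a24 to Slc25a23 was 0.760, 0.985 and 0.812 in FNZ libraries and 1.45, 1.17 and 1.33 in control libraries. It was lower in 3 of 3 FNZ libraries (mean log2 difference -0.63, exact permutation p = 0.1, adjusted p = 0.2). Likewise Slc25a33 over Slc25a36, both pyrimidine nucleotide carriers, was lower in every FNZ library, and Slc25a18 over Slc25a22, both glutamate carriers, higher (mean log2 differences -0.44 and 0.72, exact permutation p = 0.1 each, adjusted p = 0.2 each). The other 4 pairs overlapped between the groups, with exact permutation p from 0.3 to 0.7. As the pairs were chosen on these values, and 2 of them share Slc25a23, the p-values cannot serve as a test. The number of pairs that did not overlap is a description only, with no share over other gene pairs to set beside it.

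**Figure D3:**
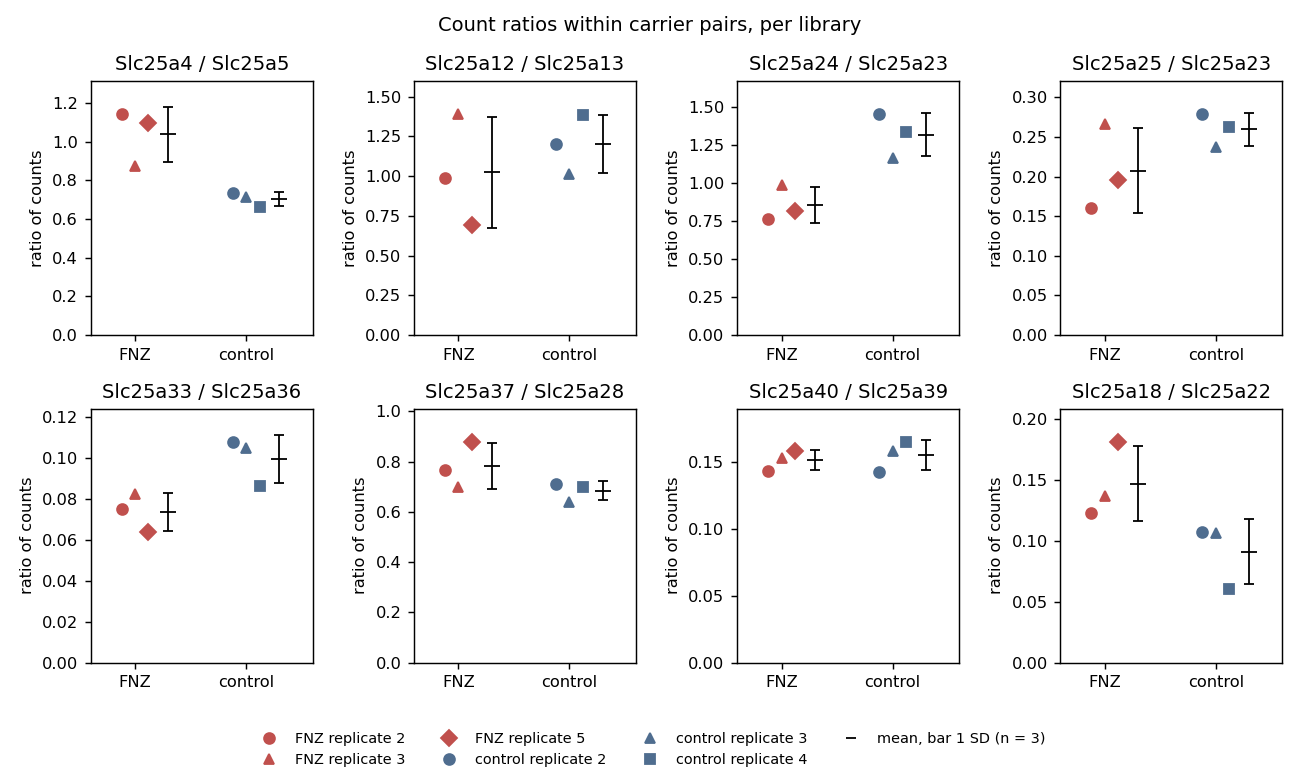
Ratio of the counts of 2 carriers in each library (y axis, from 0), with the mean and 1 SD of each group beside the points. The ratios of Slc25a4 to Slc25a5 and of Slc25a18 to Slc25a22 lie higher in all FNZ libraries, those of Slc25a24 to Slc25a23 and of Slc25a33 to Slc25a36 lower, and the other 4 overlap.

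No carrier of cofactors or other nucleotides was called. Of 9 tested members, 6 had negative fold changes (median -0.13). In CPM, 3 were lower in every FNZ library and 0 were higher in every FNZ library (13.8% and 15.8% of all tested genes). Slc25a32, which brings folate and flavin into mitochondria, had the smallest p of the family. It measured 17.6, 21.5 and 17.7 CPM in FNZ libraries against 26.1, 28.9 and 26.2 CPM in control libraries. The groups were well apart, with a log2 fold change of -0.52 ± 0.13 (by edgeR, adjusted p = 0.131), an adjusted p of 0.0225 by DESeq2 and 0.0189 by edgeR without FNZ replicate 3. When gene length (5905 bases) was corrected for, the value was -0.30 (edgeR adjusted p = 0.293). In TPM every FNZ library was lower, at 4.33, 5.30 and 4.52 TPM in FNZ libraries and 7.07, 7.83 and 7.55 TPM in control libraries. The value on the log2(TPM + 1) scale was -0.57.

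The others of this group that lay lower in every FNZ library in CPM were Slc25a33 and Slc25a17. Slc25a33, a carrier of pyrimidine nucleotides, measured 11.4, 13.7 and 10.7 CPM in FNZ libraries against 15.1, 17.2 and 13.8 CPM in control libraries (log2 fold change -0.37 ± 0.16, edgeR adjusted p = 0.228). Slc25a17, which carries cofactors in the peroxisome rather than the mitochondrion, measured 31.0, 42.55 and 44.0 CPM in FNZ libraries and 51.2, 49.3 and 46.6 CPM in control libraries (log2 fold change -0.32 ± 0.14, edgeR adjusted p = 0.229). Their values were more negative with the correction for gene length (-0.46 and -0.43) and on the log2(TPM + 1) scale (-0.57 and -0.62). Slc25a36, the more abundant pyrimidine nucleotide carrier, measured 151, 167 and 167 CPM in FNZ libraries and 141, 165 and 161 CPM in control libraries. The groups overlapped, with a log2 fold change of 0.06 ± 0.10 that was 0.26 with the correction for gene length and -0.14 on the log2(TPM + 1) scale. The NAD carrier Slc25a51, the S-adenosylmethionine carrier Slc25a26, and Slc25a16 and Slc25a42, which are linked to coenzyme A, overlapped between groups in CPM. Their log2 fold changes in counts ran from -0.17 to 0.18. In TPM, Slc25a51 and Slc25a42 were lower in every FNZ library, as were 25.4% of all tested genes, and Slc25a16 and Slc25a26 overlapped. On the log2(TPM + 1) scale Slc25a51 was at -0.56 and Slc25a42 at -0.43.

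Among carriers of carboxylates and acylcarnitines, 3 of 4 tested members had positive fold changes and 2 were higher in every FNZ library (15.8% of all tested genes), while in TPM all 4 overlapped. Slc25a20, which brings acylcarnitines in for fatty acid oxidation, measured 37.8, 35.9 and 34.3 CPM in FNZ libraries against 30.0, 27.7 and 27.7 CPM in control libraries. The groups did not overlap, and the log2 fold change was 0.34 ± 0.10 (edgeR adjusted p = 0.138), 0.23 with the correction for gene length and 0.08 on the log2(TPM + 1) scale. Slc25a11, the oxoglutarate/malate carrier of the malate-aspartate shuttle, measured 65.6, 70.1 and 67.1 CPM in FNZ libraries and 62.8, 62.7 and 60.9 CPM in control libraries. That small separation was a log2 fold change of 0.12 ± 0.08 (by edgeR, adjusted p = 0.403), 0.01 after the correction for length and -0.12 on the log2(TPM + 1) scale.

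Slc25a1, which exports citrate for fatty acid and sterol synthesis, varied most between libraries among the 4 tested members of this group. It measured 75.1, 107 and 70.0 TPM in FNZ libraries (replicates 2, 3, 5) and 105, 81.8 and 152 TPM in control libraries (replicates 2, 3, 4). Adipocyte markers summed to 343, 1495 and 95.3 TPM in the same FNZ libraries and to 748, 102 and 1485 TPM in the control libraries. The libraries with the most adipocyte transcripts, FNZ replicate 3 and control replicate 4, were also the highest for Slc25a1. The log2 fold change was -0.15 ± 0.24 (edgeR adjusted p = 0.737), 0.12 without control replicate 4 and -0.40 on the log2(TPM + 1) scale, and the part of fat in it was not tested. Slc25a10, the dicarboxylate carrier, had a log2 fold change of 0.09 ± 0.12 in counts.

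Amino acid carriers had values of both signs, with 3 of 8 tested members positive and 5 negative (median -0.15). Slc25a12, an aspartate/glutamate carrier of the malate-aspartate shuttle that calcium regulates, measured 41.2, 69.2 and 50.9 CPM in FNZ libraries against 78.2, 83.1 and 68.8 CPM in control libraries. FNZ replicate 3 just reached the lowest control library. The log2 fold change was -0.51 ± 0.19 (edgeR adjusted p = 0.172), -0.29 with the correction for gene length (6351 bases, the longest tested member), and -0.74 without FNZ replicate 3 (edgeR adjusted p = 0.0158). Its liver-type relative Slc25a13 measured 41.7, 49.8 and 73.5 CPM in FNZ libraries and 65.2, 81.8 and 49.8 CPM in control libraries. The groups overlapped widely (log2 fold change -0.25 ± 0.25, edgeR adjusted p = 0.571, and -0.44 on the log2(TPM + 1) scale).

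Slc25a44, a carrier of branched-chain amino acids, measured 35.7, 46.4 and 39.2 CPM in FNZ libraries against 52.8, 53.0 and 53.5 CPM in control libraries. Control libraries were close together and all FNZ libraries lay lower (log2 fold change -0.39 ± 0.12, edgeR adjusted p = 0.138, and 0.0160 without FNZ replicate 3). The value was -0.31 with the correction for gene length and -0.60 on the log2(TPM + 1) scale. Slc25a18, a glutamate carrier, was low in abundance and had the highest fold change of the tested members. It measured 6.07, 6.48 and 8.15 CPM in FNZ libraries against 4.98, 4.91 and 3.66 CPM in control libraries, a log2 fold change of 0.61 ± 0.23 (by edgeR, adjusted p = 0.180) that was 0.30 on the log2(TPM + 1) scale, where the groups overlapped. Its exons overlap those of Atp6v1e1 on the opposite strand, and no source used here says how the counting treated strand, so these counts are uncertain. Slc25a38, the glycine carrier for heme synthesis, and Slc25a29, for basic amino acids, were also higher in every FNZ library in CPM (log2 fold changes 0.25 ± 0.13 and 0.30 ± 0.21) but overlapped in TPM. Slc25a22, the main glutamate carrier here, and the ornithine carrier Slc25a15 overlapped in CPM (-0.11 ± 0.13 and -0.19 ± 0.16). In TPM both were lower in every FNZ library, as were 25.4% of all tested genes. On the log2(TPM + 1) scale Slc25a22 was at -0.48 and Slc25a15 at -0.39.

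No iron or glutathione carrier was called. All 4 had positive log2 fold changes, from 0.04 to 0.23, with edgeR adjusted p from 0.339 to 0.880. On the log2(TPM + 1) scale all 4 were negative, from -0.23 to -0.01, on both sides of the median of -0.18 over all tested genes. Slc25a39, which brings glutathione into mitochondria, measured 100.3, 107.6 and 98.0 CPM in FNZ libraries and 94.9, 93.3 and 89.85 CPM in control libraries, the only member of this group in which the libraries did not overlap (log2 fold change 0.14 ± 0.09), and the value was 0.02 with the correction for gene length and -0.20 on the log2(TPM + 1) scale. Slc25a28, a mitoferrin, measured 85.3, 80.0 and 78.7 CPM in FNZ libraries and 65.8, 83.1 and 88.9 CPM in control libraries, and the groups overlapped. The mitoferrins Slc25a37 and Slc25a28, which import iron, had log2 fold changes of 0.23 ± 0.13 and 0.04 ± 0.12. Slc25a37 was at 0.37 with the correction for length and at -0.01 on the log2(TPM + 1) scale. Slc25a28 turned to -0.10 with the correction for length and to -0.23 on the log2(TPM + 1) scale. Slc25a40, a relative of Slc25a39, had a log2 fold change of 0.10 ± 0.13 (-0.13 on the log2(TPM + 1) scale). Slc25a37 is strongly expressed in erythroid cells. It measured 15.3, 15.7 and 17.4 TPM in FNZ libraries (replicates 2, 3, 5) and 14.3, 15.9 and 18.9 TPM in control libraries (replicates 2, 3, 4). The red blood cell markers stood at 1115, 3788 and 645 TPM in those FNZ libraries and at 2061, 1989 and 3735 TPM in those control libraries. Control replicate 4, with the second highest sum of these markers, was the highest library for Slc25a37, and FNZ replicate 3, with the highest sum, was not. The part of blood in these values was not tested.

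In some carriers related to uncoupling proteins and orphan carriers, FNZ replicate 3 lay far from the other FNZ libraries. Slc25a30, a carrier known from kidney, measured 30.3, 69.3 and 31.0 CPM in FNZ replicates 2, 3 and 5, against 62.1, 56.6 and 48.25 CPM in control libraries. FNZ replicates 2 and 5 lay below every control library and FNZ replicate 3 above all of them. The log2 fold change was -0.35 ± 0.33 (edgeR adjusted p = 0.555), and -0.86 without FNZ replicate 3, where edgeR called it lower (adjusted p = 0.0125, and 0.0436 when gene length was corrected for too). On the log2(TPM + 1) scale the value was -0.65, with overlapping groups. Slc25a35, an orphan carrier, measured 61.55, 102 and 57.2 CPM in FNZ libraries against 45.4, 52.2 and 50.5 CPM in control libraries. Every FNZ library was higher, FNZ replicate 3 most of all, with a log2 fold change of 0.58 ± 0.22 (by edgeR, adjusted p = 0.183) that was 0.26 without that library and 0.36 on the log2(TPM + 1) scale, where the groups overlapped. Its exons overlap those of Rangrf on the opposite strand, so its counts are uncertain. In FNZ replicate 3, theca and luteal markers summed to 5368 TPM and smooth muscle markers to 3505 TPM, against at most 3520 and 1798 TPM in the other FNZ libraries and at most 3858 and 1826 TPM in control libraries. Their part in these values was not tested.

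Slc25a27, an uncoupling protein relative best known from neurons, measured 8.74, 7.15 and 9.30 CPM in FNZ libraries against 5.36, 5.57 and 6.25 CPM in control libraries. Every FNZ library was higher (log2 fold change 0.55 ± 0.19, edgeR adjusted p = 0.163), gene length correction gave 0.59, and the value on the log2(TPM + 1) scale was 0.23. Slc25a43, an orphan carrier whose gene neighbours that of Slc25a5 on the X chromosome, had the lowest fold change of the tested members at -0.65 ± 0.33 (edgeR adjusted p = 0.283). It is rare, with 1.05, 0.799 and 1.31 CPM in FNZ libraries and 1.40, 1.71 and 1.83 CPM in control libraries, and the groups barely separate. Slc25a46, an outer membrane protein that acts in mitochondrial shape, overlapped between the groups in CPM (log2 fold change -0.19 ± 0.14), as did Slc25a14, Slc25a34, Slc25a45, Slc25a47, Slc25a48 and Slc25a53 (-0.25 to 0.24). In TPM, Slc25a47 was lower in every FNZ library, and the rest of these carriers overlapped.

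**Figure D4:**
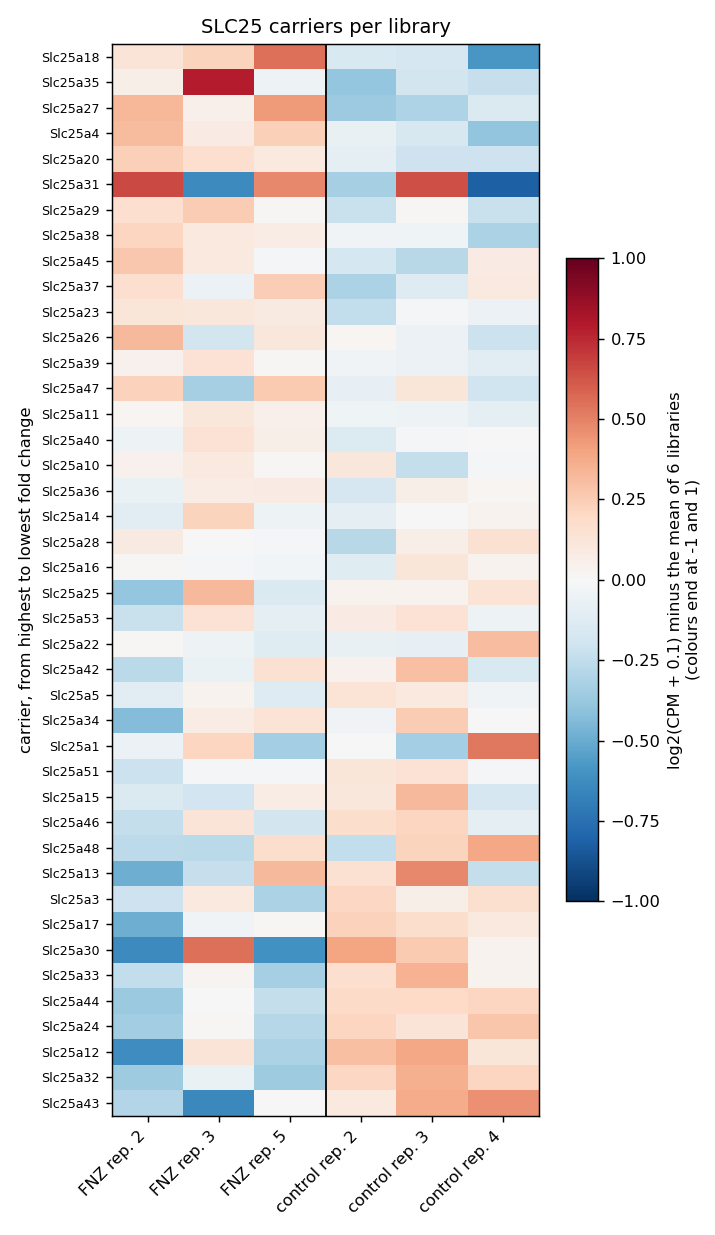
Log2(CPM + 0.1) of 42 of the 43 tested carriers (rows, ordered by fold change) in each library (columns, FNZ left of control), as the difference from the mean of 6 libraries. The ordering uses these same libraries, so it sets that upper rows are mostly red in FNZ libraries and lower rows mostly blue. FNZ replicate 3 is nearer to the controls among the lower rows. It lies apart from FNZ replicates 2 and 5 for Slc25a30 and Slc25a31.

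Leaving out FNZ replicate 3 added edgeR calls in both directions. FNZ replicates 2 and 5 both lay below every control library in 13 carriers (25.6% of all tested genes), of which FNZ replicate 3 joined them in 6, lay inside the control range in 5 and above it in 2. They both lay above every control library in 14 carriers (27.8% of all tested genes), of which FNZ replicate 3 joined them in 10. Without FNZ replicate 3, edgeR called Slc25a4 higher and Slc25a3, Slc25a12, Slc25a24, Slc25a30, Slc25a32 and Slc25a44 lower, that is 1 and 6 of 43 members against 7.99% and 9.64% of all genes (17.6% in all). With the correction for gene length as well, it called Slc25a3 and Slc25a30 lower and 0 members higher, against 1.77% and 1.59% of all genes (3.36% in all).

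Members' lengths ran from 1111 to 6351 bases, with a median of 2480 against 2705 bases for all tested genes. Across the 43 members (genes are no independent replicates) the fold change on the log2 scale had a Spearman's rho of -0.27 with length (-0.42 over all genes). Members' deviations from the mean of all libraries had rho = -0.36 with length in FNZ replicate 2. In FNZ replicates 3 and 5 that rho was only -0.10 and -0.08. In control replicates 2, 3 and 4 it was 0.18, 0.33 and 0.15. The 21 members shorter than the median had a median log2 fold change of 0.13 with 6 negative, and the other 22 a median of -0.13 with 16 negative. With the correction for length, rho of the fold change was 0.05, the median of all members -0.04 and the split 19 positive to 24 negative. The most abundant short members, Slc25a3 and Slc25a5, were below 0 and lay further below it after the correction.

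**Figure D5:**
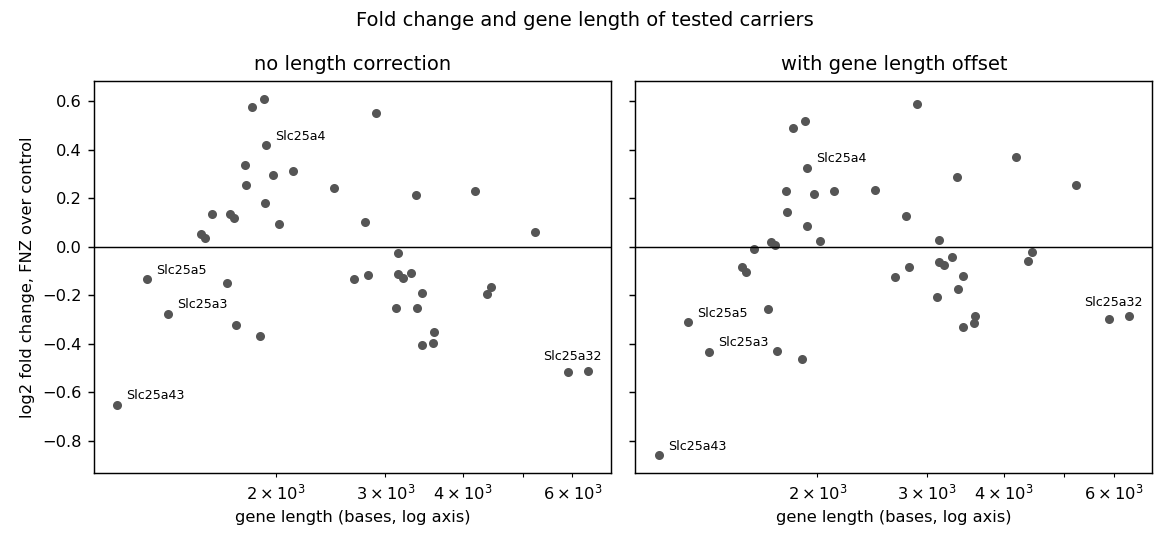
Log2 fold change of FNZ over control (y axis) against gene length in bases (log x axis) for 42 of the 43 tested carriers, without a length correction (left) and with it (right). Slc25a3 and Slc25a5 are short and below 0 in both panels, while Slc25a32 is long, at -0.30 with the correction and -0.52 without it.

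Values of the family depended on the unit. Summed TPM over all members was 1746, 2379 and 1867 in FNZ libraries (replicates 2, 3, 5) and 2460, 2381 and 2442 in control libraries (replicates 2, 3, 4). FNZ replicate 3 stood close to the controls and the other FNZ libraries lower. The members' median on the log2(TPM + 1) scale was -0.25, against -0.18 over all tested genes. In counts, the members took 0.246%, 0.282% and 0.253% of each FNZ library and 0.278%, 0.278% and 0.274% of each control library, so a lower share was seen in FNZ replicates 2 and 5.

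Of relatives that carry other names, Ucp2, Mtch1 and Mtch2 were tested, and 0 were called higher or lower. In CPM their groups overlapped. In TPM, Mtch1 was lower in every FNZ library, as were 25.4% of all tested genes. It measured 128, 165 and 145 TPM in FNZ libraries and 184, 189 and 188 TPM in control libraries. Ucp2, an uncoupling protein relative, was as abundant as the leading carriers (510 TPM) with a log2 fold change of 0.17 ± 0.15 (by edgeR, adjusted p = 0.514). In TPM its groups overlapped, at 422, 511 and 488 TPM in FNZ libraries and 450, 614 and 579 TPM in control libraries. Mtch2, an outer membrane insertase, had a log2 fold change of 0.03 ± 0.09 and also overlapped in TPM. Among 14 other mitochondrial transporters, 8 were positive and 6 negative, 0 were called, and groups did not overlap in 5 higher and 2 lower (15.8% and 13.8% of all tested genes), with a median log2 fold change of 0.03. Sfxn1, which carries serine into mitochondria, measured 33.2, 42.7 and 37.8 CPM in FNZ libraries against 47.7, 50.1 and 54.0 CPM in control libraries, a log2 fold change of -0.42 ± 0.12 (by edgeR, adjusted p = 0.135). Mpc2, a subunit of the pyruvate carrier, measured 44.9, 34.7 and 37.7 CPM in FNZ libraries against 27.8, 26.7 and 32.9 CPM in control libraries (log2 fold change 0.42 ± 0.14, edgeR adjusted p = 0.148, and 0.20 after correcting for gene length).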

How the data were processed

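Poly(A) RNA of mouse ovary was sequenced in paired ends, per the labels' protocols. The single deposited table gives expected counts per gene, with 12.0% to 14.8% of values per library not whole, and TPM that the authors scaled to a sum of 1000000. Its fold changes and p-values, with log2 values, are the authors' deposited comparison, for which the submitters' processing notes name DESeq2 1.38.3 and GRCm39. Their deposited linear fold and mean TPM columns were not used. No source used here gives the aligner, counter or annotation. Groups and replicate numbers follow the titles.

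The test, on rounded counts, was that of edgeR 4.0.16 under R 4.3.3 (TMM, filterByExpr, robust quasi-likelihood F test, two-sided) over all 17735 genes kept. SEs are the fold change over the root of F. Alternatives were DESeq2 1.42.0, limma 3.58.1 (voom, or a trend on log2(TPM + 1) or log2(TPM + 0.1)), other scalings and filters, a loess length trend (span 0.3) as an offset, a replicate block and each library left out. Tests were tried on simulated data first. Members and lists were chosen with earlier results of these data known. Values per library are given for the 8 members of highest mean TPM, the 6 of smallest p in each direction and the ADP/ATP carriers, and of each related list the 2 genes of smallest p are named. Slc25a13, Slc25a30, Slc25a37 and Slc25a43, and fold changes of further members beyond 2 a group, were added after their values were seen. Exons of 12 members overlap a gene on the opposite strand and of 2 on the same strand (GENCODE M21), so their counts are uncertain. Depth ran from 19333493 to 23406628 counts a library. Values of 1 tested member are not reported here and it is left out of the figures, but it is in the counts and medians over members.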

Additional observations from a re-analysis of the deposited data

How the results depend on the processing

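With the main test 0 genes and 0 carriers were called (4107 genes at an unadjusted p under 0.05). DESeq2 called 1462 genes and 2 carriers, edgeR without a filter 183 genes, limma voom 2, limma on log2(TPM + 1) 1 and on log2(TPM + 0.1) 4, and the gene length offset 2. Leaving out a library gave from 0 to 3230 genes and from 0 to 7 carriers, with 3230 and 7 without FNZ replicate 3 and at most 1 gene and 0 carriers without any other library. The length offset without FNZ replicate 3 gave 615 genes and 2 carriers. The carriers' median log2 fold change was -0.03, from -0.087 to 0.047 over libraries left out, 0.038 without a filter, and -0.25 and -0.32 on the 2 TPM scales. Over all tested genes the median was -0.18 on log2(TPM + 1). The count of non-overlapping carriers ran from 13 with the length offset (22.9% of all tested genes) to 17 with upper quartile scaling (30.4%). It was 16 in the main test, 10 higher and 6 lower (29.6% of all tested genes). On log2(TPM + 1) it was 15, with 2 higher and 13 lower (31.5% of all tested genes). The difference in log2 ratio of Slc25a4 to Slc25a5 ran from 0.46 to 0.67.

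The replicate block could use numbers 2 and 3 only, and gave 27 genes and 0 carriers. Deviations from each group's own mean correlated at -0.08 and -0.14 between libraries of the same number. Between libraries of unlike numbers they correlated at -0.32 to 0.37. Such deviations cancel within a group, so these values cannot show whether the numbers mark pairs. The numbers were not taken as pairs, as only 2 and 3 occur in both groups.

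Of 340 values of named carriers, 17 changed sign and 14 of 20 carriers had no such change. Slc25a1 was 0.25 with the block and from -0.33 to 0.12 over libraries left out, the highest without control replicate 4. Slc25a31 was -0.14 with the block. On log2(TPM + 1) and log2(TPM + 0.1), Slc25a11 was -0.12 on both, Slc25a28 -0.23 on both, Slc25a36 -0.14 and -0.15, and Slc25a39 -0.20 on both. With the length offset Slc25a28 was -0.10, and without FNZ replicate 3 as well Slc25a28 was -0.13, Slc25a11 -0.053 and Slc25a39 -0.056. Without control replicate 2, Slc25a28 was -0.082 and Slc25a36 -0.0070. The cause was not tested. With 3 libraries a group, differences inside the replicate spread cannot be told from none.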
